A study of Mus musculus with 48 samples.

Results

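Macrophages meet T cells through a small set of surface proteins, and 7 genes for such proteins are described here in mouse bone marrow-derived macrophages: Cd40, Cd80, Cd86, Cd83, Cd274, Icosl and Icam1. They were chosen by name with earlier results of these data known, and their symbols were matched to Ensembl identifiers in the deposited count table. The table lists 49315 genes, of which 13986 had enough counts to be tested, and all 7 were among these. Expression is given in CPM, a count scaled to library size, after correction by the trimmed mean of M-values. A value after ± is the standard deviation (SD) of 4 libraries for CPM and the standard error (SE) for a log2 fold change.

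The macrophages came from 16 mice and gave 48 libraries. The genotypes were wild type (WT), LynAKO and LynBKO, which lack 1 of the splice isoforms LynA and LynB of the Src-family kinase Lyn, and LynKO, which lacks both. Nothing in the sources used here tells how the alleles were made or which strain the mice were. Each genotype had 2 male and 2 female mice by the labels, and the cells of each mouse were divided among 3 treatments. Marrow was grown in medium with macrophage colony-stimulating factor (M-CSF), and all groups, the untreated ones included, were then rested overnight and kept for the 2 h of treatment in medium without it. The treatments were medium alone (NT), 2 ng/mL of lipopolysaccharide (LPS) from S. Minnesota R595, which is sensed by Toll-like receptor 4, or 20 ng/mL of R848 (resiquimod), which is sensed by Toll-like receptor 7 in the mouse. Each ligand was used at 1 dose and 1 time, so 12 groups of 4 libraries were compared.

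CD80 and CD86 are the B7 proteins that bind CD28, the costimulatory receptor of T cells, and the inhibitory receptor CTLA-4. CD40 is a receptor through which T cells bearing CD40 ligand signal back to the antigen-presenting cell, and ICOS ligand, the product of Icosl, binds the inducible costimulator ICOS. PD-L1, the product of Cd274, binds the inhibitory receptor PD-1, and ICAM-1 holds cells together by binding the integrin LFA-1. CD83 is a surface marker of mature dendritic cells that slows the removal of CD86 and MHC class II from the surface. NF-kB, which Toll-like receptors activate, and interferon signalling are both known to drive genes of this kind. Protein at the cell surface was not measured here, only RNA.

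Total counts ran from 14974764 to 23321447 per library. Lyn, the targeted gene, was lower in LynKO than in WT by a log2 fold change of -1.38 ± 0.07 without ligand, -1.89 ± 0.09 with LPS and -1.84 ± 0.09 with R848. The 11 macrophage markers summed to 25682 to 47345 CPM in each library. The 9 dendritic cell markers summed to 2.98 to 20.3 CPM, and the dendritic genes Flt3, Zbtb46 and Ccr7 had means under 1 CPM in all 12 groups. Markers of B cells and fibroblasts summed to at most 5.17 and 5.95 CPM, those of endothelial cells to 4.34 to 10.4 and those of neutrophils to 12.4 to 73.4. The T cell list summed to 5.16 to 61.9 CPM, nearly all of it Cd28. In a bulk sample, fewer cells that express a gene and less RNA per cell cannot be told apart. In 2 untreated libraries labelled female, RNA of both sexes was present: LynBKO NT 4 had 121 CPM of Xist and 133 of Y-linked genes, and LynKO NT 4 had 232 and 70.8. LynBKO NT 2 is female by label and RNA, with 241 CPM of Xist and 0 of Y-linked genes. NT 3 is male by both, with 0.476 and 220. The LPS and R848 libraries of the same numbers have the opposite sex, also by label and RNA. In LynBKO these numbers thus do not stand for the same mouse across treatments. Differences of untreated LynKO and LynBKO cells from WT and interactions that are named are also given without the 2 libraries of mixed sex.

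The sequences before the transcription start are shown for the members that RefSeq holds in the table used here, because 3 of these 4 genes rose with both ligands while Cd80 did not pass the test. They come from RefSeq (GRCm38.p6), run from 250 bases before to 50 after the start, and are all on the plus strand. The windows are chr9:21015690-21015989 for Icam1, chr10:78069118-78069417 for Icosl, chr19:29367188-29367487 for Cd274 and chr16:38458683-38458982 for Cd80. Cd40, Cd86 and Cd83 had no entry. The windows of Icam1, Icosl and Cd274 span the annotated start of the gene, which is not the same base as the RefSeq start. The annotated start of Icam1 (21015985) and that of Cd274 (29367455) lie downstream of the RefSeq start. That of Icosl (78069302) lies upstream of it. Positions of matches are counted from the RefSeq start. The Cd80 window lies wholly inside the annotated gene, which begins at 38455561, so it surrounds a start further downstream. In position it is thus not matched to the other windows. Capitals mark matches, on either strand and with overlaps allowed, to 6 motifs: the NF-kB consensus, the RelA and c-Rel consensus, the interferon-gamma activated site TTCNNNGAA, the interferon-stimulated response element, the AP-1 site TGANTCA and TATAAA. Of 32851 windows of the same length, 4.51%, 8.38%, 8.3%, 3.44%, 7.81% and 13.6% held these motifs, in the same order.
Icam1: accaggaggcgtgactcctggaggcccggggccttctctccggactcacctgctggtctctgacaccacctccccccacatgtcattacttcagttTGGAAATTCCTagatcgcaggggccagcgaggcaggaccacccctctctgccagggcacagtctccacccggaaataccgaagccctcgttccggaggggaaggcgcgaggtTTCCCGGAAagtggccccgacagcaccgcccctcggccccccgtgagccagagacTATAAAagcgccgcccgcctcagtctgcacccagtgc
Icosl: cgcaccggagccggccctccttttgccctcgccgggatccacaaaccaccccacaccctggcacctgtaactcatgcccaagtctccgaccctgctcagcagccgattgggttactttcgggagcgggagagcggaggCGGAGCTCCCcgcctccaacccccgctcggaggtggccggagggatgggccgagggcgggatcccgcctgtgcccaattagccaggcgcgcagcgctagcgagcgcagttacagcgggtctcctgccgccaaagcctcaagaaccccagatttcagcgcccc
Cd274: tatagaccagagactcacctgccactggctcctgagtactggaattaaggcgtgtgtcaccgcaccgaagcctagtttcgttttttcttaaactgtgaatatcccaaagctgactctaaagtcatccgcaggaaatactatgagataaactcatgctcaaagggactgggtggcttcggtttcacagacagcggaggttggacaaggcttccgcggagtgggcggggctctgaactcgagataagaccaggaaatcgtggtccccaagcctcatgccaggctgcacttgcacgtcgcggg
Cd80: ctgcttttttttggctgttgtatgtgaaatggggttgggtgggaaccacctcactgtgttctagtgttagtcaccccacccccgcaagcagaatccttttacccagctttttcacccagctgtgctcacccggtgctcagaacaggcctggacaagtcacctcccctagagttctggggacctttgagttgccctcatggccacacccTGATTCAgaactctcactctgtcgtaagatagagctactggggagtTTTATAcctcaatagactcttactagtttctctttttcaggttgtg
The Icam1 window held overlapping matches to the RelA and c-Rel consensus on both strands, the first starting 154 bases before the RefSeq start. An interferon-gamma activated site began 42 bases before that start and a TATAAA 13 bases after it. The TATAAA thus lies before the annotated start of Icam1, which is further downstream. In the Icosl window a RelA and c-Rel match began 112 bases before the RefSeq start. The Cd80 window held an AP-1 site 42 bases before its RefSeq start, inside the annotated gene, and a TATAAA on the minus strand. None of the 6 motifs was found in the Cd274 window, which says only that these letters are not in it.

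In untreated WT macrophages Icam1 was the member with the most RNA per length and Cd40 the one with the least. Levels of different genes are compared here as CPM per kb of exon. Icam1 stood at 22.6 ± 1.44 CPM per kb (SD, n = 4), Icosl at 7.10 ± 0.677, Cd86 at 6.88 ± 1.61, Cd83 at 6.19 ± 0.637 and Cd274 at 5.37 ± 0.501. Icosl and Cd83 each lay within the SD of Cd86, while Cd274 lay below Cd83 by more than the SD of either gene. Cd80 and Cd40 were lowest, at 1.25 ± 0.284 and 1.13 ± 0.327 CPM per kb, and did not differ beyond their spread.

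The order changed with each ligand. With LPS, Cd40 moved from last to the second place, at 210.2 ± 16.8 CPM per kb, after Icam1 at 676 ± 50.3 and before Icosl at 97.0 ± 5.76, Cd83 at 85.6 ± 8.46 and Cd274 at 65.5 ± 4.17. With R848, Icosl came second at 132 ± 9.20 CPM per kb, and Cd40 at 78.1 ± 20.2 and Cd83 at 73.3 ± 12.7 did not differ beyond their spread. Cd86 (13.6 ± 0.638 with LPS and 10.1 ± 0.802 with R848) and Cd80 (1.73 ± 0.354 and 1.67 ± 0.420) were the last of the 7 under both ligands. The plot of the levels in each library shows these groups.

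**Figure D1:**
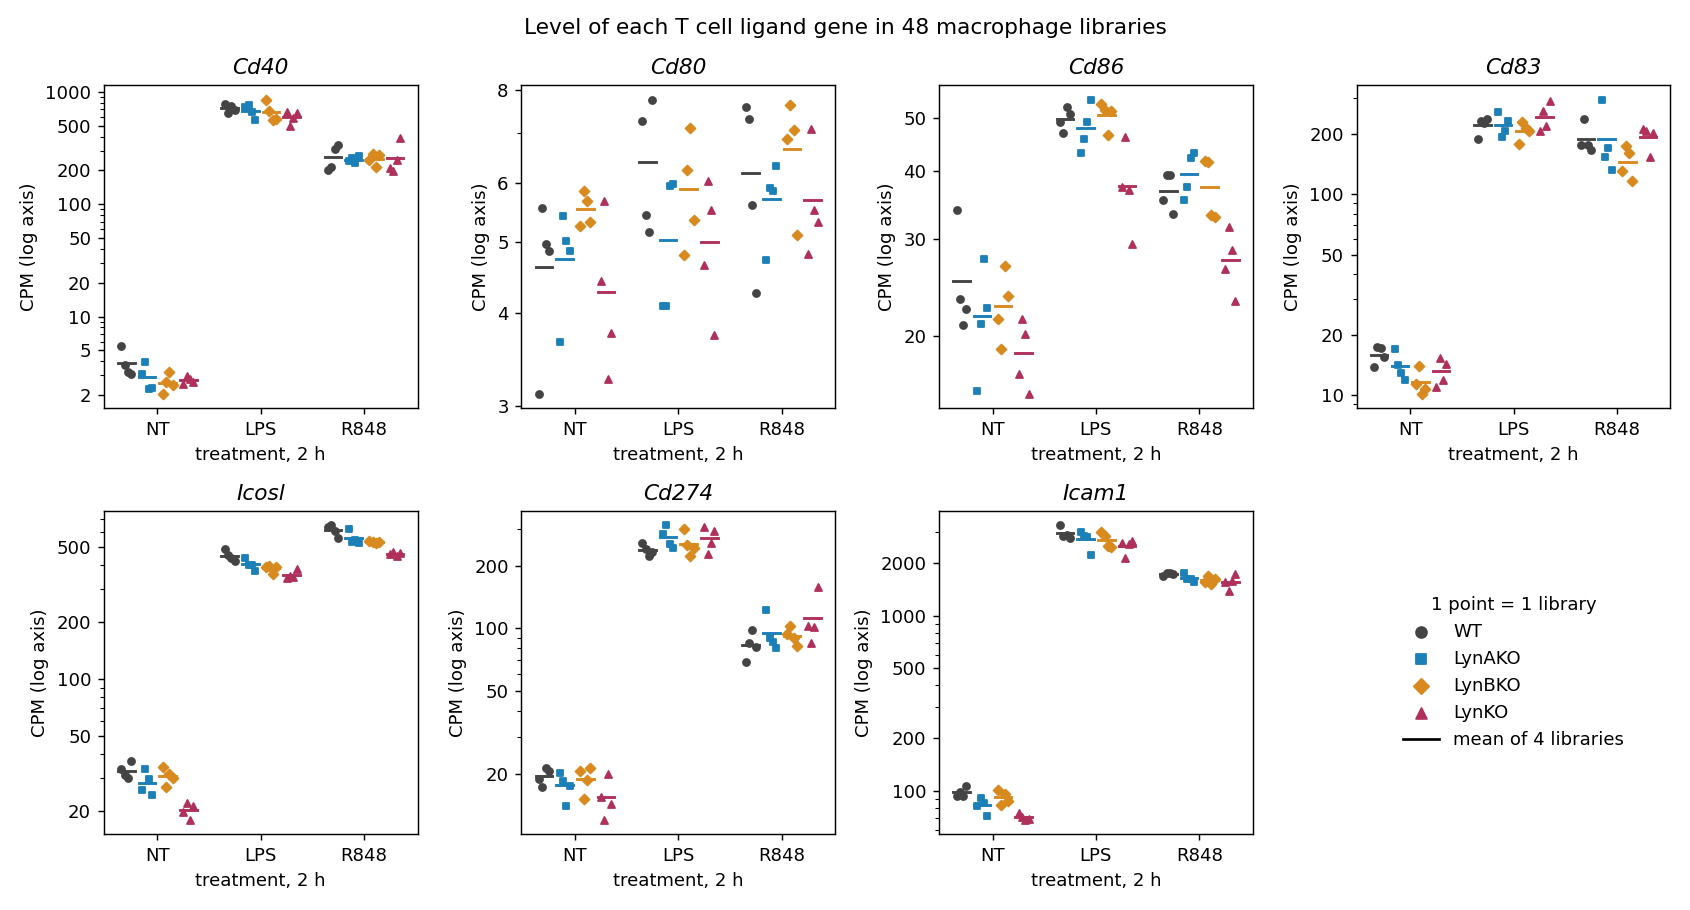
CPM of the 7 members on a log axis in each of the 48 libraries, 1 panel per gene, with genotypes and treatments along the horizontal axis; points are libraries and bars the mean of 4. Cd40 spans the widest range, from means of 2.58 to 716 CPM, while the 12 group means of Cd80 lie between 4.28 and 6.67 CPM.

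With either ligand, 6 of the 7 members rose in every genotype, and Cd80 passed the test in none. Over 4 genotypes 24 of 28 tests of the members passed for each ligand, all of them higher. Of all tested genes 31.5% were higher with LPS in WT (edgeR adjusted p under 0.05), and 30.4%, 33.9% and 31.0% were in LynAKO, LynBKO and LynKO. With R848 the shares of all genes were 30.0%, 29.0%, 31.3% and 28.4% in the same order. The median log2 fold change of the 7 members in WT was 3.78 with LPS, against -0.03 for all tested genes, and 3.59 with R848, also against -0.03. Since the members were chosen with earlier results of these data known, these medians and shares only describe the set. The comparisons with LPS and with R848 use the same untreated libraries, and without the 2 untreated libraries of mixed sex 24 of 28 tests passed for each ligand as well.

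Cd40 (ENSMUSG00000017652, chromosome 2, 165055627 to 165072948, plus strand, GRCm38) had the largest fold change of the 7. The untreated WT libraries held 5.49, 3.69, 3.21 and 3.07 CPM, the LPS libraries 778, 649, 746 and 691, and the R848 libraries 199.7, 215, 311 and 338. The 3 groups did not overlap, and every R848 library was below every LPS library. The log2 fold change was 7.56 ± 0.22 with LPS, or 188-fold, and 6.14 ± 0.21 with R848, or 70.6-fold (edgeR adjusted p = 4.57e-15 and 5.10e-14). In the knockouts it was 7.76 to 7.98 with LPS and 6.43 to 6.60 with R848.

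The B7 genes had smaller fold changes than Cd40. Cd86 (ENSMUSG00000022901, chromosome 16, 36603869 to 36666081, minus strand) stood at 33.9, 23.4, 21.0 and 22.5 CPM in the untreated WT libraries, 49.2, 46.9, 52.4 and 50.8 with LPS and 35.4, 39.3, 39.3 and 33.4 with R848. WT mouse 1 had the highest untreated value, which lay above the lowest R848 value, so these 2 groups overlapped, while the LPS group lay above both. The log2 fold change was 1.00 ± 0.13 with LPS (edgeR adjusted p = 1.89e-06) and 0.58 ± 0.13 with R848 (0.000781). Cd86 rose by 1.01 to 1.15 with LPS and by 0.55 to 0.87 with R848 in the 3 knockouts on the same scale.

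Cd80 (ENSMUSG00000075122, chromosome 16, 38455561 to 38496335, plus strand) stayed close to its untreated level. In WT it stood at 3.12, 5.56, 4.97 and 4.86 CPM untreated, 7.27, 5.43, 5.15 and 7.77 with LPS and 7.59, 7.31, 5.60 and 4.27 with R848, and the 3 groups overlapped. The log2 fold change in WT was 0.47 ± 0.22 with LPS (95% interval 0.02 to 0.93, edgeR adjusted p = 0.0658) and 0.45 ± 0.22 with R848 (0.0831), with an interval that ended at 0.90. The knockouts gave 0.08 to 0.22 with LPS and 0.27 to 0.39 with R848. These values rest on 58 to 167 counts per library. The call in WT depended on the setting: with LPS it passed by DESeq2 (0.0495), with all 48 libraries in 1 model (0.0338) and without WT mouse 2 (0.0486), over a range of 0.0338 to 0.318, and with R848 it passed without WT mouse 4 (0.0398), over a range of 0.0398 to 0.526. In LynKO with R848 (adjusted p = 0.108) the mouse as a block brought it past the threshold (0.0391), over a range of 0.0391 to 0.335.

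Cd83 (ENSMUSG00000015396, chromosome 13, 43784775 to 43803132, plus strand) rose to like levels with the 2 ligands in WT. It stood at 13.8, 17.3, 17.1 and 15.5 CPM untreated, 188, 229.9, 227 and 236 with LPS and 176, 237, 176 and 166 with R848. The ligand groups overlapped with each other and not with the untreated group. Its log2 fold changes were 3.80 ± 0.13 with LPS and 3.59 ± 0.12 for R848 (edgeR adjusted p = 2.31e-14 and 7.44e-14), and 3.99 to 4.20 and 3.64 to 3.86 in the knockouts.

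Icosl (ENSMUSG00000000732, chromosome 10, 78069302 to 78083913, plus strand) was the one member called higher with R848 than with LPS. WT libraries held 33.3, 31.1, 29.9 and 37.0 CPM untreated, 483, 453, 435 and 421 with LPS and 635, 646, 606 and 551 with R848. The 3 groups did not overlap, and the R848 group was on top. The log2 fold change was 3.78 ± 0.09 with LPS and 4.24 ± 0.10 with R848, or 13.8-fold and 18.9-fold (edgeR adjusted p = 7.28e-16 and 6.19e-16). In the knockouts Icosl rose by 3.65 to 4.11 with LPS and 4.11 to 4.48 with R848.

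Cd274 (ENSMUSG00000016496, chromosome 19, 29367455 to 29388095, plus strand), the gene of the inhibitory ligand PD-L1, was the reverse case. WT libraries held 18.8, 17.2, 21.2 and 20.5 CPM untreated, 257, 239, 221 and 231 with LPS and 68.6, 85.2, 97.7 and 81.3 with R848. The groups did not overlap, and the lowest LPS library was above the highest R848 library. The log2 fold change was 3.62 ± 0.11 with LPS and 2.12 ± 0.10 with R848, or 12.3-fold and 4.35-fold (edgeR adjusted p = 6.57e-15 and 6.18e-12). Cd274 shares 511 exon bases with an antisense gene, AC119228.1, and since no source used here gives the strand setting of the counting, reads of the pair cannot be told apart.

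Icam1 (ENSMUSG00000037405, chromosome 9, 21015985 to 21028817, plus strand), the adhesion ligand, was the most abundant member in every group. WT libraries held 94.3, 98.5, 93.8 and 107 CPM untreated, 3269, 2857, 2892 and 2775 with LPS and 1685, 1756, 1748 and 1726 with R848. The 3 groups stood apart. With LPS against NT the log2 fold change was 4.92 ± 0.09, and with R848 4.16 ± 0.09, or 30.2-fold and 17.9-fold (edgeR adjusted p = 4.30e-17 and 2.80e-16). An antisense gene that shares 511 exon bases with Icam1, Gm47079, had 0 to 21 counts per library.

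**Figure D2:**
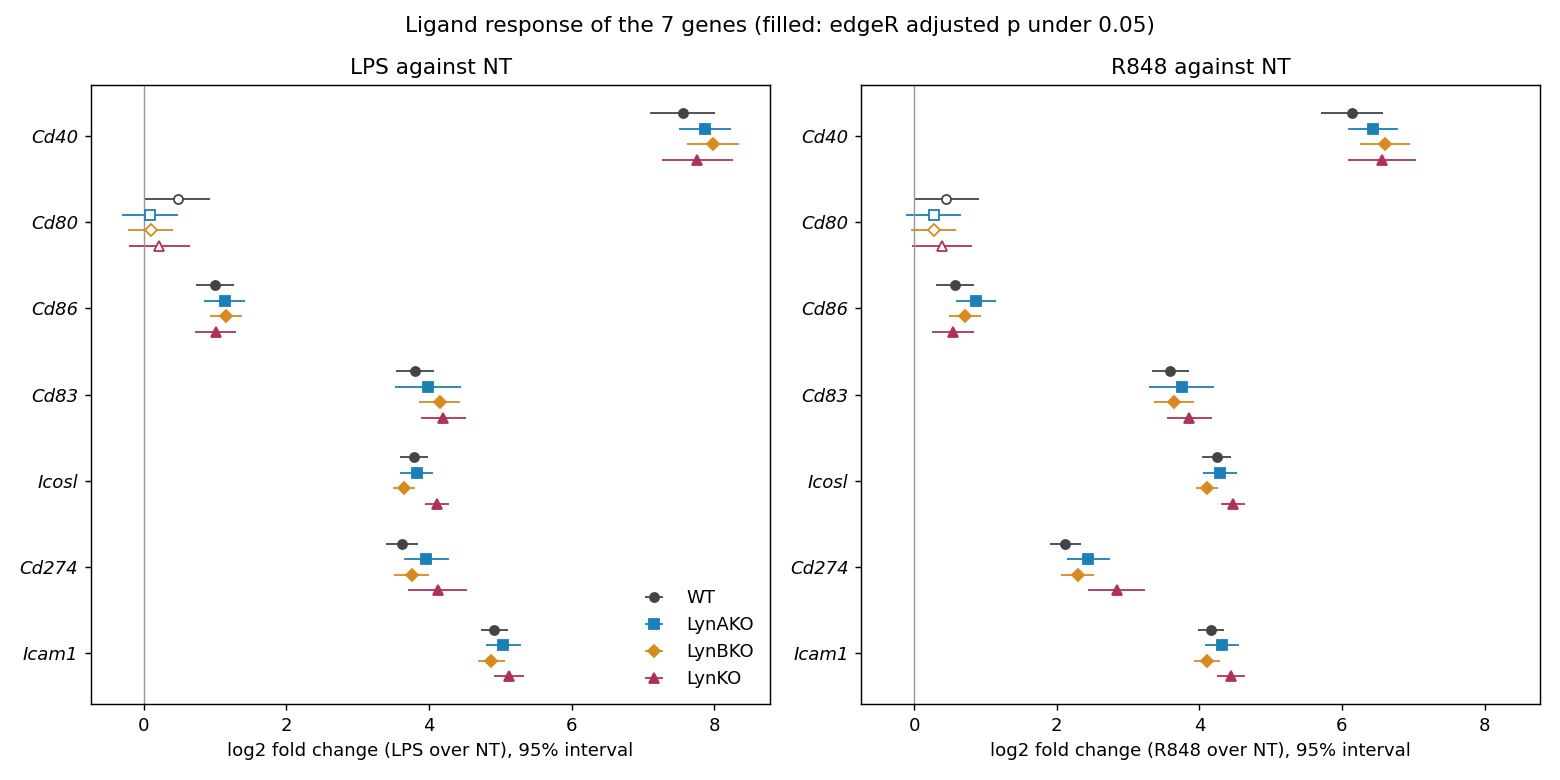
Log2 fold change of each member with LPS or R848 against untreated cells of the same genotype, with 95% intervals from edgeR, 1 row per gene and genotype. In WT Cd80 lies at 0.47 with LPS and 0.45 with R848, Cd86 at 1.00 and 0.58, and Cd40 at 7.56 and 6.14.

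Some dendritic cell markers were also higher with ligand. The summed CPM of the 9 markers had a mean of 3.77 in untreated WT cells, 14.5 with LPS and 14.8 with R848, of which Xcr1 made up 0.312, 6.24 and 6.69 and Itgax 2.60, 4.99 and 6.13. The part of such cells in the rise of the 7 members was not tested. In LynBKO the sum was higher with R848 than with LPS without overlap, at 17.8 (15.53 to 20.3) against 13.5 (11.6 to 15.51) CPM, while in each of the other genotypes the ranges with LPS and R848 overlapped. Its part in the differences between the ligands was not tested.

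Set against each other at the doses used, the 2 ligands gave different profiles of the 7 genes. Cd40, Cd274 and Icam1 were higher with LPS and Icosl was higher with R848 in all 4 genotypes. In 20 of 28 tests the members passed. Of all tested genes 21.0% passed in either direction in WT, and 17.6%, 26.5% and 15.9% did in LynAKO, LynBKO and LynKO. The log2 difference of LPS from R848 in WT was 1.50 ± 0.10 for Cd274, 1.42 ± 0.16 for Cd40 and 0.76 ± 0.08 for Icam1 (edgeR adjusted p = 2.94e-09, 3.37e-06 and 6.24e-07). In the knockouts it was 1.28 to 1.52 for Cd274, 1.20 to 1.44 for Cd40 and 0.68 to 0.76 for Icam1.

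Icosl went the other way, at -0.46 ± 0.08 in WT and -0.47, -0.46 and -0.37 in LynAKO, LynBKO and LynKO (edgeR adjusted p = 0.000627, 0.00237, 4.08e-05 and 0.00119). These 16 calls held under every alternative run, with an adjusted p of at most 0.0309. The ratio of Cd274 to Icosl counts, which needs no scaling between libraries, was 0.529 ± 0.0168 in the WT LPS libraries (0.508 to 0.549) and 0.137 ± 0.0228 in the WT R848 libraries (0.108 to 0.161). Every LPS library thus had more Cd274 for its Icosl than every R848 library. The ratio was formed after the values of both genes were seen and was not tested. Each gene already separated the ligands in WT, in opposite directions, so the ratio had to separate them too and is no further evidence.

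The calls of Cd86 and Cd83 depended on the genotype and on single libraries. Cd86 was higher with LPS than with R848 in WT (0.42 ± 0.13, edgeR adjusted p = 0.0234), LynBKO (0.44, 0.00444) and LynKO (0.46, 0.0293), and stood at 0.27 (0.200) in LynAKO. The WT call was lost without mouse 2, 3 or 4 (0.0627, 0.0539 and 0.108, over a range of 0.0017 to 0.108), and the LynKO call without mouse 1, 2 or 3 (0.164, 0.081 and 0.121, over a range of 0.000203 to 0.164). With the mouse as a block the LynAKO value passed (0.0285, over a range of 0.0285 to 0.398). Cd83 was higher with LPS in LynBKO (0.51 ± 0.12, 0.00309), and stood at 0.21 (0.209) in WT, 0.23 (0.463) in LynAKO and 0.34 (0.0855) in LynKO. With the block it passed in LynAKO (0.0471) and LynKO (0.00477). It also passed in LynAKO without mouse 1 (0.017, over a range of 0.017 to 0.809) and in LynKO with no filter on low counts (0.00308, over a range of 0.00308 to 0.243). Cd80 stood at 0.02 in WT and at -0.19 to -0.17 in the knockouts, none of which passed. Whether these differences between the ligands differ by genotype was not tested directly.

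**Figure D3:**
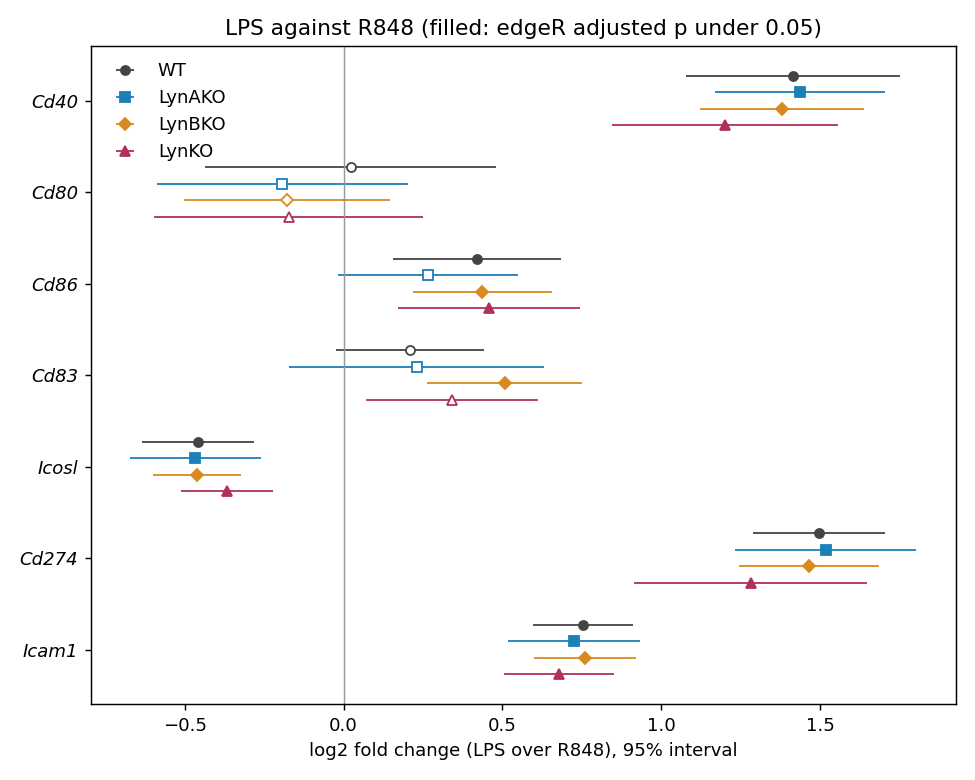
Log2 difference of LPS from R848 for each member and genotype, with 95% intervals from edgeR; values above 0 are higher with LPS. Cd274 and Cd40 lie furthest to the right, at 1.50 and 1.42 in WT, and Icosl is on the left of 0 in every genotype.

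Without both Lyn isoforms, macrophages had less Icosl under all 3 treatments, less Icam1 before any ligand, and less Cd86 with either ligand. LynKO against WT passed for 2 of 7 members under each treatment, all lower, where 9.90% of all tested genes passed without ligand, 8.49% with LPS and 5.93% with R848, in either direction. The median log2 difference of the 7 members was -0.42 without ligand, -0.24 with LPS and -0.13 with R848, against 0.00, 0.02 and 0.01 for all tested genes. The 3 treatments used the cells of the same mice, so they are not independent.

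The sum of the 11 macrophage markers was lower in LynKO as well. Each of them had a mean above 1 CPM in each group. Abundant genes weigh most in such a sum, and the direction of the single markers is not given here. Untreated LynKO libraries held 25682 to 28246 CPM of them against 38722 to 47345 in WT, LPS libraries 26702 to 30079 against 38040 to 45991, and R848 libraries 26015 to 30408 against 38490 to 42068. The 8 neutrophil and granulocyte progenitor markers summed to 12.4 to 18.6 CPM in LynKO against 24.3 to 51.2 in WT without ligand, 18.2 to 25.5 against 32.8 to 73.4 with LPS and 17.0 to 24.7 against 35.5 to 64.9 with R848. LynKO and WT overlapped in none of these sums. Their part in the differences of the members was not tested.

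Icosl stood at 19.7, 22.2, 18.1 and 21.4 CPM in the untreated LynKO libraries, 341, 351, 343.5 and 378 with LPS and 459, 468, 446 and 460.2 with R848. Under each treatment every LynKO library was below every WT library. The log2 difference from WT was -0.68 ± 0.10 without ligand (edgeR adjusted p = 0.000148), -0.32 ± 0.07 with LPS (0.00575) and -0.41 ± 0.07 with R848 (0.00218). Without the untreated library of mixed sex in LynKO and that in LynBKO, the untreated value was -0.70 ± 0.11 (0.000915). These 3 calls held under every alternative, with an adjusted p of at most 0.0215.

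Icam1 stood at 74.9, 70.7, 68.8 and 69.5 CPM in the untreated LynKO libraries, all below the WT libraries, with a log2 difference of -0.46 ± 0.07 (edgeR adjusted p = 0.00028). It was -0.45 ± 0.08 (0.00227) without the libraries of mixed sex, and the call held under every alternative. With LPS the LynKO libraries held 2589.8, 2131, 2558 and 2647 CPM, again without overlap with WT, but the difference of -0.23 ± 0.09 did not pass (0.138, over a range of 0.0398 to 0.353), except with all 48 libraries in 1 model (0.0398). With R848 they held 1558, 1378, 1566 and 1727 CPM and overlapped with WT (-0.15 ± 0.07, adjusted p = 0.223).

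Cd86 stood at 37.4, 46.1, 36.9 and 29.5 CPM in the LynKO LPS libraries and 26.5, 31.6, 28.7 and 23.1 in the LynKO R848 libraries. All were below the WT libraries of the same treatment. The log2 difference was -0.39 ± 0.11 with LPS (edgeR adjusted p = 0.0264) and -0.42 ± 0.11 with R848 (0.0302). The LPS call was lost without LynKO mouse 1, 3 or 4 (0.0514, 0.0587 and 0.0833) and without WT mouse 1, 3 or 4 (0.0516, 0.0628 and 0.0576), over a range of 0.00541 to 0.0833. The R848 call was lost without LynKO mouse 1 or 4 (0.0742 and 0.0867) and without WT mouse 1, 2 or 3 (0.0519, 0.0724 and 0.0808), over a range of 0.00685 to 0.0867. Untreated, Cd86 stood at 17.1, 21.5, 20.1 and 15.7 CPM in LynKO, and its difference of -0.42 ± 0.16 did not pass (0.113), except with no filter on low counts (0.00148) or all 48 libraries in 1 model (0.0425), over a range of 0.00148 to 0.409. It was -0.35 (0.278) without the libraries of mixed sex.

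Cd274 had the opposite sign with ligand and did not pass. LynKO libraries held 15.4, 12.0, 20.0 and 14.3 CPM untreated, 307, 226, 257 and 291 with LPS and 103, 85.3, 102 and 157 with R848. Each LynKO group overlapped with its WT group. The log2 difference was -0.32 ± 0.14 without ligand (edgeR adjusted p = 0.167), 0.21 ± 0.10 with LPS (0.214) and 0.42 ± 0.16 with R848 (0.128). The untreated value was -0.29 (0.301) without the libraries of mixed sex. It passed without LynKO mouse 3 (0.0349, over a range of 0.0349 to 0.425) and the R848 value with no filter on low counts (0.00229, over a range of 0.00229 to 0.438).

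Cd40, Cd83 and Cd80 did not pass under any treatment. Cd40 was at 2.52, 2.97, 2.78 and 2.61 CPM in the untreated LynKO libraries, all below WT, with a log2 difference of -0.49 ± 0.22 (edgeR adjusted p = 0.186), and at -0.24 with LPS and -0.03 with R848. Cd83 differed by -0.27 (0.236), 0.16 and 0.03 and Cd80 by -0.10, -0.33 and -0.13, in the order NT, LPS and R848. Without the libraries of mixed sex the untreated values were -0.47 (0.303) for Cd40, -0.31 (0.236) for Cd83 and -0.05 (0.931) for Cd80. The 95% intervals of all 21 LynKO differences lay between -0.95 and 0.76.

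**Figure D4:**
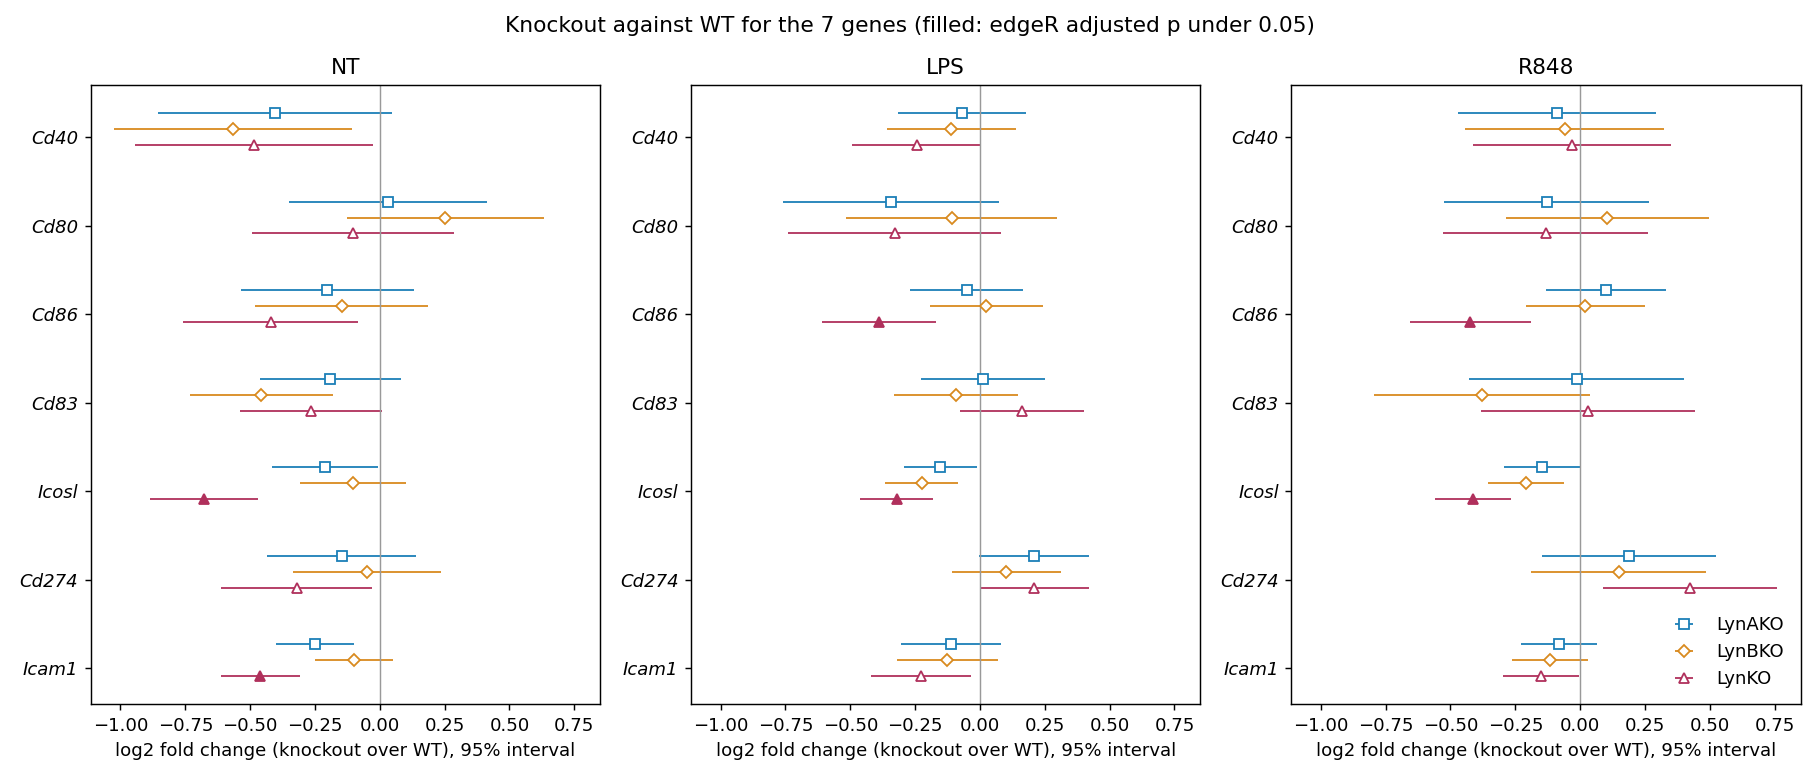
Log2 difference of LynAKO, LynBKO and LynKO from WT for each member under each treatment, with 95% intervals from edgeR. Icosl in LynKO lies below 0 in all 3 treatments, at -0.68, -0.32 and -0.41, while no member of LynAKO or LynBKO passed the test.

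The knockout of a single isoform moved no member past the threshold. In LynAKO against WT, 0 of 21 tests passed by edgeR and 0 by DESeq2, and 3 had an unadjusted p under 0.05. The 95% intervals lay between -0.86 and 0.52 on the log2 scale. Of all tested genes 0.0286% passed without ligand, 0.0215% with LPS and 0.00715% with R848. An unadjusted p under 0.05 was found for 3.2% to 5.34% of all genes, depending on the treatment. In LynBKO against WT, 0 of 21 tests passed by edgeR and 0 by DESeq2, 4 had an unadjusted p under 0.05, and the intervals lay between -1.02 and 0.63. The shares of all genes that passed were 0.0644%, 0.0358% and 0%. Those with an unadjusted p under 0.05 made up 4.55% to 13.2%, the highest share without ligand.

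The tests with an unadjusted p under 0.05 were of Icam1, Icosl, Cd83 and Cd40. Icam1 in untreated LynAKO cells had a mean of 82.8 CPM where WT had 98.5, and the groups did not overlap (log2 difference -0.25 ± 0.07, unadjusted p = 0.00255, edgeR adjusted p = 0.690). Icosl was at -0.21, -0.15 and -0.15 in LynAKO and -0.10, -0.22 and -0.21 in LynBKO without ligand, with LPS and with R848. In LynBKO it did not overlap with WT in the LPS and R848 groups, with means of 383 against 448 CPM (adjusted p = 0.552) and 527 against 609.6 CPM (0.835). Cd83 in untreated LynBKO cells was at 11.6 ± 1.71 CPM and in WT at 15.9 ± 1.64 (-0.46 ± 0.13, adjusted p = 0.196), and passed with no filter on low counts (0.0155, over a range of 0.0155 to 0.478). Cd40 in the same cells was at 2.58 against 3.86 CPM (-0.57 ± 0.22, 0.305). Without the libraries of mixed sex the values of untreated LynBKO cells were -0.42 (0.451) for Cd83, -0.54 (0.512) for Cd40 and -0.09 (0.805) for Icosl. The summed macrophage markers of the untreated libraries, 33405 to 37726 CPM in LynAKO and 33784 to 37140 in LynBKO, were also below those of WT without overlap. LynKO was not tested against LynAKO or LynBKO.

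LynAKO and LynBKO were also compared with each other. Of 21 tests 0 passed by edgeR or DESeq2 and 0 had an unadjusted p under 0.05, with 95% intervals between -0.65 and 0.78. Of all tested genes 0% passed under each treatment, and 2.52% to 8.39% had an unadjusted p under 0.05.

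Whether the response to a ligand differed from WT was tested as an interaction, the log2 change with ligand in a knockout minus that in WT. Of 42 tests of the members 0 passed by edgeR and 0 by DESeq2, and 5 had an unadjusted p under 0.05. These 5 were all in LynKO, 2 of 7 members for LPS and 3 of 7 for R848. The 95% intervals of the 42 tests lay between -0.93 and 1.19. Of all tested genes 0.100% passed for LPS and 0.193% for R848 in LynKO, and 0% for each ligand in LynAKO and in LynBKO. An unadjusted p under 0.05 was found for 7.6% of all genes for LPS and 9.02% for R848 in LynKO. In LynAKO and LynBKO the share was 2.35% to 3.27%. The 3 knockouts share the WT libraries.

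The value with the smallest p was that of Cd274. It rose by 2.84 with R848 in LynKO and by 2.12 in WT in the fit of each genotype, and the interaction in the model of all 48 libraries was 0.76 ± 0.21 (edgeR adjusted p = 0.169). With the mouse as a block it was 0.74 and passed (0.0255, or 0.0170 with LynBKO NT 2 and NT 3 exchanged), and it passed with no filter on low counts (0.79, 1.35e-05). Over all alternatives the adjusted p ran from 1.35e-05 to 0.636, the highest without LynKO mouse 4, where the value was 0.52. The LPS interaction of Cd274 was 0.52 (0.492, over a range of 0.012 to 0.768) and passed only with no filter on low counts. Icosl stood at 0.35 (0.275) with LPS and 0.28 (0.422) with R848, and Icam1 at 0.32 (0.351) with R848. Without the libraries of mixed sex Cd274 stood at 0.72 (0.256) with R848 and 0.48 (0.583) with LPS, Icosl at 0.29 (0.412) and 0.36 (0.321), and Icam1 at 0.30 (0.409) with R848.

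Genes that act with the members were counted from lists. In WT 31.5% of all tested genes rose with LPS and 30.0% with R848, and 21.0% differed between the ligands in either direction. LynKO differed from WT in 9.90% of genes without ligand, 8.49% with LPS and 5.93% with R848, also in either direction. Of 13 genes of CD40 signalling and NF-kB, 12 rose and 1 fell with each ligand in WT, with a median log2 fold change of 2.07 with LPS and 1.66 with R848. Traf1, an adaptor of the CD40 complex, rose by 4.72 and 4.30, and Nfkb2, the subunit of the non-canonical NF-kB pathway, by 3.20 and 2.69. Map3k14, the kinase that opens that pathway, fell by 1.61 and 1.34. Between the ligands 6 of the 13 were higher with LPS, among them Nfkb2 (0.51), and Traf3, which holds Map3k14 protein in check, was lower (-0.36, a call lost without WT mouse 3, adjusted p = 0.0796). In LynKO against WT without ligand, 4 fell and 1 rose: Birc3 (-0.57), Relb (-0.38), Nfkb2 (-0.29) and Nfkb1 (-0.26) were lower and Map3k14 (0.36) was higher, the last not in the model of all 48 libraries (edgeR adjusted p = 0.24). Without the libraries of mixed sex these 5 genes still passed, at -0.53, -0.42, -0.34, -0.23 and 0.36 in that order (adjusted p at most 0.0455). With LPS 1 gene of the list passed, Rela (-0.31), and not without LynKO mouse 2 (0.0553) or WT mouse 1 (0.058). Over all alternatives 0 to 5 genes of the list passed with LPS, all lower. Nfkb2 passed in 10 of 22 alternatives, among them DESeq2 (0.0192) and all 48 libraries in 1 model (0.00755), Relb in both of these (0.0456 and 0.0239), Nfkb1 in the second (0.0369) and Rel in the first (0.037). With R848 it was Rel (-0.48), and not without LynKO mouse 1, 2 or 4 (0.0902, 0.074 and 0.0865) or WT mouse 3 or 4 (0.113 for each).

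The list of interferon receptor signalling differed more between the ligands. Of its 13 genes 12 rose and 0 fell with LPS in WT, and 9 rose and 3 fell with R848, with medians of 1.25 and 0.62. Irf1, a transcription factor known to act on Cd274, rose by 3.75 with LPS and 1.59 with R848. Stat2, a signal transducer of type I interferon receptors, rose by 2.39 with LPS and fell by 0.58 with R848, and Irf9, its partner, rose by 1.07 and stood at -0.20 with R848, a call lost without WT mouse 2 or 4 (0.0857 and 0.0987) or without a filter on low counts (0.0548). Directly compared, 10 of the 13 were higher with LPS and 0 lower, with Stat2 at 2.97, Irf1 at 2.16 and Irf9 at 1.27. In LynKO Irf1 was lower than in WT under all 3 treatments, at -0.29, -0.42 and -0.37 (edgeR adjusted p = 0.0138, 0.00139 and 0.0367). Untreated it was -0.29 (0.0436) without the libraries of mixed sex. The untreated call was lost without WT mouse 4 (0.0669), and the R848 call without LynKO mouse 1, 2 or 3 (0.0748, 0.0989 and 0.0756) or WT mouse 3 or 4 (0.117 and 0.11).

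Costimulators of the TNF superfamily were counted over 6 tested genes of 8. In WT 5 rose with LPS and 4 with R848, and 5 were higher with LPS than with R848. Tnfsf9, the ligand of the T cell receptor 4-1BB, went from 5.16 ± 0.832 CPM untreated to 443 ± 49.9 with LPS and 153 ± 18.7 with R848, or log2 fold changes of 6.44 and 4.92. In LynKO Tnfsf9 was lower with LPS (-0.54, edgeR adjusted p = 0.00582) and with R848 (-0.59, 0.00249), and at -0.50 (0.0887) without ligand (-0.52, 0.15 without the libraries of mixed sex). Tnfsf14, the ligand LIGHT, was higher in LynKO without ligand (1.07, 0.0013, with 0.00706 without the libraries of mixed sex and 0.054 in the model of all 48 libraries). Tnfsf14 was also called higher in LynKO with LPS, and in 10 of 22 alternatives, over log2 differences of 0.91 to 1.30. Tnfsf15 was lower in LynKO with LPS (-1.35, 0.00147).

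Of 17 tested adhesion and contact ligands other than Icam1, 13 rose and 1 fell with LPS in WT and 13 rose and 2 fell with R848. Vcam1, which binds the integrin VLA-4, went from 0 to 6 counts per untreated WT library to 28.0 ± 6.77 CPM with LPS and 11.4 ± 1.91 with R848. Cd44, a receptor for hyaluronan, rose by 2.30 and 1.81, and Nectin1, an adhesion protein, fell by 2.73 and 2.58. In LynKO, Pvr, the ligand of the T and NK cell receptors DNAM-1 and TIGIT, was lower with R848 (-0.45, edgeR adjusted p = 0.0141, and 0.0517 without WT mouse 3). Pvr was also called lower in LynKO with LPS, and in 14 of 22 alternatives, over log2 differences of -0.46 to -0.31. Cd48, an adhesion protein that binds CD2 and 2B4, was lower without ligand (-0.38, 0.000606, and -0.33, 0.00536 without the libraries of mixed sex).

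Of the other 8 B7 and butyrophilin genes 2 were tested. Vsir, which encodes the inhibitory ligand VISTA, fell by 1.33 with LPS and 1.31 with R848 in WT. Cd276, which encodes B7-H3, rose by 0.61 with LPS, though not without WT mouse 1 (adjusted p = 0.173), and was higher in untreated LynKO than WT cells (0.87, edgeR adjusted p = 0.00351, and 0.88, 0.00728 without the libraries of mixed sex). Of 4 genes that act on the turnover of these proteins at the surface, Cmtm6, which protects PD-L1 from degradation, was lower in LynKO under all 3 treatments, at -0.29, -0.36 and -0.36 (adjusted p = 0.00761, 0.0121 and 0.0042), the first -0.25 (0.0441) without the libraries of mixed sex. March1, a ubiquitin ligase that acts on CD86, rose by 0.49 with LPS and 0.82 with R848 in WT, the first not without WT mouse 2 (0.114). It was also called lower in untreated LynKO than WT cells, and in 16 of 23 alternatives, over log2 differences of -0.60 to -0.37. The call was lost without the libraries of mixed sex (-0.37, edgeR adjusted p = 0.112). With LPS and with R848 March1 was not called in LynKO against WT. In LynAKO and LynBKO against WT, no gene of these lists passed by edgeR.

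The members followed one another across the 12 groups to unequal degrees. Pearson's r over the group means was highest for Cd40 and Icam1, at 0.9986, and 0.8833 for Cd274 and Icosl. Cd80 gave 0.5171 to 0.7301 with the other members. These values describe 12 group means that share mice and are set mainly by the ligands. Over 9365 genes with a mean of at least 5 CPM, the genes most like each member by the same measure were Foxp4 for Cd40 (0.9997), Slc39a7 for Cd80 (0.9813), Gm11696 for Cd86 (0.9916), Tomm70a for Cd83 (0.9978), Sbno2 for Cd274 (0.9973), Hcar2 for Icosl (0.9991) and Rnf19b for Icam1 (0.9996). The next for Icosl were Nlrp3 (0.9988) and Smg8 (0.9985), and for Icam1 Tnfaip3 and Nfkb2 (0.9995 each).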

How the data were processed

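PolyA RNA of 48 macrophage cultures was sequenced as paired reads. Per the submitters' processing notes, the tools were Trimmomatic 0.36, STAR 2.5.2b, featureCounts (Subread 1.5.2) and DESeq2, and the build GRCm38. Which annotation release and strand setting the counting used is not given in the sources used here. Every value here comes from the raw counts per gene that the authors deposited. A deposited table of variance-stabilised log2 values was not used. Of 49315 gene identifiers, 49056 matched GENCODE M21, the source of symbols, coordinates and exon lengths.

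Genes were kept by filterByExpr over 12 groups (minimum count 10, minimum total 15), scaled by TMM and put to edgeR's quasi-likelihood test (edgeR 4.0.16, R 4.3.3). The Benjamini-Hochberg adjustment ran over all 13986 genes, and an adjusted p under 0.05 passed. Each ligand comparison was fitted on 12 libraries of 1 genotype, each genotype comparison on the 16 libraries of a treatment, and the interactions on all 48, which made 30 comparisons. These main models held group means only, with no term for the mouse. Ligand comparisons and interactions were thus tested unpaired, though the cells of each mouse were divided among the treatments. The pairing entered only in the alternative with a block. The code was tested on simulated data. The members and lists were chosen with earlier results of these data known. From a list, up to 3 genes each way with the smallest adjusted p were eligible to be named, and the choice among these, and of Cd28, was made with their values in view. Most-alike genes were ranked by Pearson's r over 12 group means among genes with a mean of at least 5 CPM. A fold of a gene with nearly no counts depends on the prior count and is not given. The labels say nothing of separate experiments, so p-values measure the spread between these mice.

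The replicate number was taken as the mouse across treatments of a genotype, which by sex does not hold for LynBKO NT 2 and NT 3. Leaving out a mouse removed the libraries of its number. Over 48 pairs of libraries of the same number the correlation of deviations from the group mean was -0.21 to 0.42, with a median of 0.20, and 42 of the 48 pairs held the best match of their first library. The other 6 pairs all hold LynBKO NT 2, NT 3 or NT 4. Libraries of the same number and treatment but of different genotypes, and so of different mice, were also correlated. Over 72 such pairs the correlation was -0.25 to 0.40, with a median of 0.14. The number may thus carry more than the mouse, and what it carries was not tested. The main genotype comparisons held no term for it. Alternatives were DESeq2 1.42.0, RLE size factors, no filter, a term for sex, a block for the replicate number, 1 model of all 48 libraries, a model of an interaction's own 4 groups, each mouse left out, and the libraries of mixed sex left out. The block with LynBKO NT 2 and NT 3 exchanged was added after seeing the data.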

Additional observations from a re-analysis of the deposited data

Results flagged for a closer look

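Cd83 in the R848-treated WT macrophages had 1 library far from the other 3: mouse 2 held 237 CPM and the others 165.5 to 176 CPM, a gap of 0.852 of the range of the group. It was the one such case among 84 groups of 4 libraries (7 members in 12 groups), where chance gives about 1 in 20.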

How the results depend on the processing

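No result changed direction past the threshold under any alternative. The counts of members called were 24 or 25 of 28 for each ligand against NT and 0 of 21 for LynAKO against WT in all settings. For LPS against R848 the count was 20 of 28 and ran from 19 to 23. For LynKO against WT it was 6 of 21 and ran from 4, with 1 mouse left out, to 8. With no filter on low counts 1 member passed in LynBKO against WT in place of 0, and 2 interactions in place of 0. With the replicate block 1 interaction passed, also with LynBKO NT 2 and NT 3 exchanged, and of the other calls of the members the block changed only those named beside Cd80, Cd83 and Cd86. Of the CD40 signalling and NF-kB list 5 genes passed with the block in LynKO against WT with LPS, in place of 1. The number of all genes called moved more than that of the members. For LPS against R848 it was 2932 in WT (1830 to 2542 with 1 mouse left out, lowest without mouse 2), 2463 in LynAKO (4048 with the block, 1457 and 1450 without mouse 2 and 3) and 2219 in LynKO (1358, 1380 and 1274 without mouse 1, 2 and 3). For LynKO against WT it was 1187 with LPS (747 without LynKO mouse 4, 663 without WT mouse 1) and 829 with R848 (DESeq2 1250, block 1753, all 48 libraries 1406, 523 and 542 without LynKO mouse 1 and 4, 483 and 464 without WT mouse 3 and 4). For LynAKO and LynBKO it was 0 to 9, and 13 to 445 with no filter, up to 124 by DESeq2, 17 with the block, 11 with sex as a covariate, 3 without the libraries of mixed sex and 29 with 1 mouse left out. Interactions of LynKO numbered 14 for LPS and 27 for R848, against 125 and 148 with no filter, 66 and 81 by DESeq2, 121 and 173 with the block, 149 and 198 with the exchange, 22 and 3 in only 4 groups, 6 and 17 without the libraries of mixed sex, and 2 to 33 and 6 to 38 with 1 mouse left out, while sex as a covariate gave 28 for LPS. In LynAKO and LynBKO they went from 0 to 15 to 23 with no filter and at most 2 otherwise. The cause of these shifts was not tested. Cd80, at 58 to 167 counts per library, is the member whose precision the depth limits most with ligand.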

Other observations

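The balance of the inhibitory ligand gene Cd274 to its costimulatory neighbours differed between treatments and genotypes in these libraries. The ratio of Cd274 to Cd86 counts in WT was 0.805 ± 0.202 (SD, n = 4) untreated, 4.77 ± 0.469 with LPS and 2.26 ± 0.254 with R848. In LynKO it was 0.842 ± 0.192, 7.49 ± 2.10 and 4.22 ± 1.77. The LynKO range with LPS, 4.90 to 9.88, overlapped with that of WT, 4.22 to 5.23, while with R848 the LynKO range of 2.70 to 6.78 lay above the WT range of 1.94 to 2.49. The ratio of Cd274 to Icosl with LPS was 0.645 to 0.900 in LynKO and 0.508 to 0.549 in WT, and with R848 0.182 to 0.341 against 0.108 to 0.161, both without overlap. With LPS it had means of 0.680 in LynAKO (0.639 to 0.779) and 0.663 in LynBKO (0.618 to 0.769). Both ranges lay above that of WT and overlapped with that of LynKO. With R848 the ranges of LynAKO, 0.154 to 0.199, and LynBKO, 0.156 to 0.194, overlapped with those of both WT and LynKO. These ratios were formed after the values of the genes were seen and were not tested.

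Cd28, the T cell receptor for CD80 and CD86, was itself counted in these macrophage libraries, at a mean of 54.0 CPM in untreated WT cells, and fell by 2.42 ± 0.17 on the log2 scale with LPS and by 2.07 ± 0.17 with R848 (edgeR adjusted p = 9.71e-10 and 8.81e-09). In untreated LynKO cells Cd28 stood at 31.7 CPM, a log2 difference of -0.75 ± 0.12 from WT (0.000252). Without the 2 untreated libraries of mixed sex it was -0.65 (0.00173). With LPS it differed by -0.66 (0.0697) and with R848 by -0.59 (0.107). The LPS value passed by DESeq2 (0.027), with all 48 libraries in 1 model (0.0311), with no filter on low counts (0.00245), with the replicate block (0.0498) and without WT mouse 1 (0.0433). The R848 value passed with no filter (0.00716) and without LynKO mouse 1 (0.0425). It was looked at after the T cell marker list had been summed.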
